A study of Mus musculus with 24 samples.

Results

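Differentiation of cells that carried full-length NFIA was examined by RNA-seq, as 3 libraries at day 7 against 3 libraries at day 0 of the same cells. The genes described are those with FPKM, fragments per kilobase of gene per 1000000 counted fragments, of at least 1 in at least 3 of these 6 libraries, which were 11923 of the 24825 genes listed. The cells came from inguinal white fat of Nfia flox/flox mice, as the stromal vascular fraction, a mixture of the non-adipocyte cells of the tissue in which precursors are found, and they were immortalised with SV40 large T antigen. They then received retroviral Cre recombinase and retroviral 3xFLAG-tagged full-length NFIA, and are called Cre + NFIA. The 3 other cell types of the series, used only where a day effect is compared, were ctrl (the same floxed, immortalised cells with an empty vector), Cre (Cre recombinase alone) and Cre + NFIA Δpro#3 (Cre and a tagged NFIA that lacks a proline-rich segment), each with 3 libraries a day. All of them were taken through the same thermogenic adipocyte differentiation, in which isobutylmethylxanthine, indomethacin and dexamethasone were given with insulin, T3 and rosiglitazone at confluence and then withdrawn, while insulin, T3 and rosiglitazone were kept. Rosiglitazone is itself a PPARγ agonist and dexamethasone a glucocorticoid, and the days therefore differ in agents as well as in time.

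White and brown adipocytes arise from fibroblast-like precursors. In culture, C/EBPβ and C/EBPδ are induced early and are followed by PPARγ and C/EBPα, which bind together at most adipocyte genes and maintain each other's expression. PPARγ then switches on the machinery that takes up, makes, stores and releases fat, and brown or beige adipocytes add mitochondria and UCP1, which lets protons back into the mitochondrial matrix and releases heat. NFIA, a member of the nuclear factor I family of DNA-binding proteins, acts with PPARγ at brown fat enhancers.

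The 6 libraries held 9.44 to 10.72 M reads each before differentiation, where M is 1000000, and 12.46 to 14.62 M reads each after it, so that depth moved with the day. Genes at 1 FPKM or more numbered 11393 to 11426 at day 0 and 11616 to 11634 at day 7. On the log2(FPKM + 1) scale the first principal component held 94.4% of the variance and separated the days. Nfia itself, on chromosome 4 from 97439425 to 97868605 of mm9, was at 74.9, 69.7 and 72.7 FPKM at day 0 and by day 7 at 97.1, 89 and 83.9 FPKM. These values hold the reads of the transgene. In libraries labelled Cre the gene-level value did not stand below that of ctrl (5.34 to 6.81 against 6.23 to 6.75 FPKM at day 0). The loss of the endogenous gene was therefore not checked by this value. The study itself reported by RT-qPCR and western blot that Cre cells had lost nearly all NFIA mRNA and protein. The increase of Nfia between days was 0.31 ± 0.06 (SE) on the log2 scale, under the 3-fold limit used here.

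A gene was called where limma's test on log2(FPKM + 1) gave a Benjamini-Hochberg adjusted p under 0.05 and the change was at least 3-fold on that scale, a log2 change of 1.58. Of the 11923 genes, 730 rose (6.12%) and 419 fell (3.51%). Of these 1149 genes, 1147 had day 0 and day 7 libraries that did not overlap, as did 9221 of all 11923 genes tested. The median change of the genes that rose was 2.35 and that of the genes that fell was −1.95, beside −0.05 over all genes tested. The largest changes were increases. A change of at least 10-fold was reached by 174 of the genes that rose and by 13 of those that fell. Without the fold limit 4083 genes (34.2%) were higher and 4837 (40.6%) lower by adjusted p alone. With median-of-ratios scaling these were 4541 and 4354, so the balance of directions without the fold limit turned with the scaling. Most of the genes that passed the adjusted p did not reach 3-fold, so the fold limit and not the adjusted p set most of the calls. With reads thinned to the smallest library, 732 rose and 423 fell, and 1134 of the calls were shared.

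**Figure D1:**
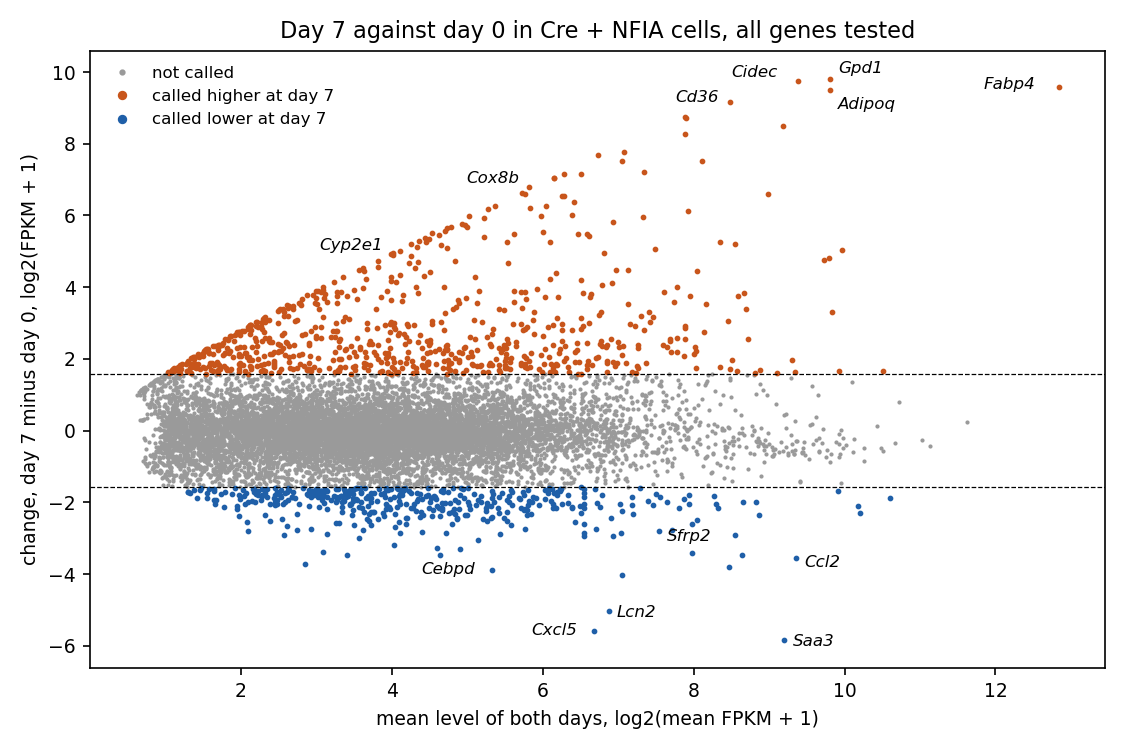
Change between the days (vertical axis, day 7 minus day 0 on the log2(FPKM + 1) scale) against the mean level of both days (horizontal axis, log2 of mean FPKM + 1), 1 point for each of the 11923 genes tested in Cre + NFIA cells. Dashed lines mark the 3-fold limit of 1.58, and the 730 genes that rose (orange) reach 9.81 for Gpd1 while the 419 that fell (blue) reach −5.83 for Saa3.

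The label of an adipocyte was checked against its markers first. The 7 adipocyte markers summed to 30.2 to 32.4 FPKM at day 0 and to 18650 to 18840 FPKM at day 7, and 7 of 7 rose. The 7 precursor markers summed to 2221 to 2369 FPKM at day 0 and to 528 to 598 FPKM at day 7. Ly6a alone made up 1810 to 1940 FPKM of these sums at day 0 and 413 to 473 FPKM at day 7. Of the 6 precursor markers tested 3 fell and 0 rose, and by adjusted p alone 2 were higher and 4 lower. Markers of other cells that such a preparation can hold were low. The 11 macrophage and leukocyte markers summed to 16.0 to 17.7 FPKM at day 0 and 6.17 to 7.44 FPKM at day 7, with Ptprc and Adgre1 at 0 reads, and the 9 endothelial markers to 8.95 to 10.2 and 2.09 to 2.87 FPKM, with Tie1 and Erg at 0 reads. The 8 mesothelial and epithelial markers summed to 6.06 to 7.06 and 5.63 to 7.98 FPKM. The 7 mural markers summed to 10.7 to 11.3 FPKM at day 0 and 65.1 to 70.9 FPKM at day 7, of which Mcam rose (3.69 on the log2 scale) while Abcc9 and Kcnj8 stood at 0 reads. In bulk RNA, fewer cells of a kind and less RNA from each cell cannot be told apart, and this holds for each decrease below.

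The core adipogenic factors were the first group examined. Pparg, the nuclear receptor that drives the adipocyte program (chromosome 6, 115311239 to 115440419), was at 4.89, 7.25 and 6.51 FPKM at day 0 and by day 7 at 60.2, 63.2 and 56.5 FPKM. Its partner Cebpa was at 19.5, 21.9 and 20.4 FPKM and then 160, 167 and 162 FPKM. For both genes each day 7 library was far above each day 0 library, and the increases were 3.09 ± 0.11 for Pparg (adjusted p = 2.39e-08) and 2.93 ± 0.05 for Cebpa (adjusted p = 2.37e-10) on the log2 scale. The early factors did not share this direction. Cebpd was at 69, 83.3 and 70.1 FPKM at day 0 and by day 7 at 3.79, 4.19 and 4.15 FPKM. It fell by 3.89 ± 0.08 (adjusted p = 6.06e-10) and was the most decreased of the 22 factors tested. Cebpb had day 0 values of 32.6, 41.2 and 37.2 FPKM and day 7 values of 23.4, 33.9 and 25.3 FPKM. Its groups overlapped, and its change of −0.42 was not called. The samples hold no time between day 0 and day 7, so the early induction of these 2 genes was not measured.

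Of the 22 adipogenic transcription factors tested, 6 rose and 2 fell, with a median of 0.24. Nr1h3, the oxysterol receptor LXRα, was at 1.15, 1.61 and 1.28 FPKM and rose to 91.2, 85.3 and 90.8 FPKM, 66-fold by the means. Zbtb16, a zinc finger repressor, was at 0.0414 to 0.055 FPKM and rose to 8.64 to 11.2 FPKM. Klf4, a Krüppel-like factor that acts early in adipogenesis, was at 66.4, 69.9 and 57.1 FPKM and fell to 11.4, 9.78 and 10 FPKM. Most members of the list, 14 of 22, were not called in either direction.

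Within the nuclear factor I family the 4 members differed. Nfib was at 1.01, 1.33 and 1.23 FPKM at day 0 and by day 7 at 13.1, 13.4 and 11.7 FPKM, an increase of 2.65 ± 0.09 on the log2 scale (adjusted p = 1.21e-08). Nfix was at 59.6, 61.9 and 60.9 FPKM and then 32, 32.3 and 32.6 FPKM. All 3 day 7 libraries of Nfix were lower, but the change of −0.89 was under the fold limit. Nfic overlapped between days, at 56.9 to 62.3 and 58.1 to 61.5 FPKM, with a change of 0.01.

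**Figure D2:**
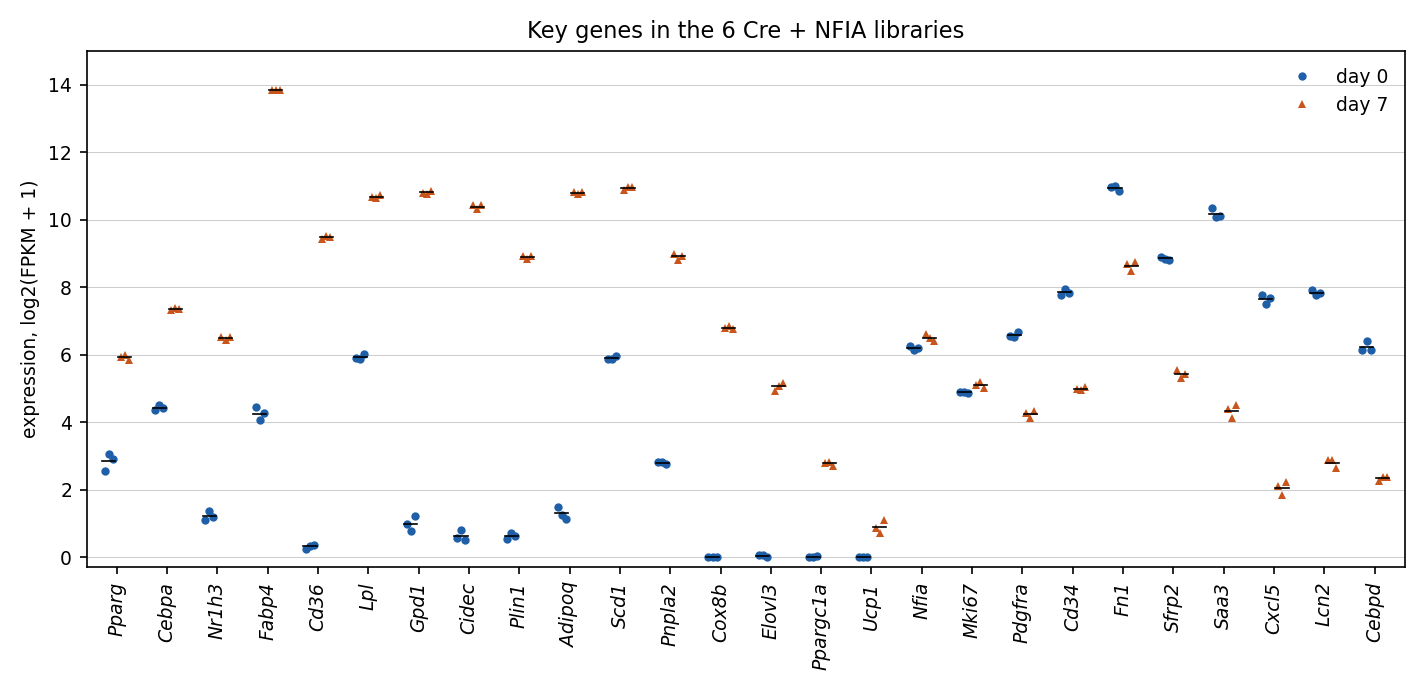
Expression as log2(FPKM + 1) (vertical axis) in each of the 3 day 0 (blue circles) and 3 day 7 (orange triangles) libraries of Cre + NFIA cells, with the mean of each day as a short line, for genes named on the horizontal axis. Replicates of a day lie close together, adipocyte genes such as Fabp4 and Gpd1 stand higher at day 7, Nfia and Mki67 differ by 0.31 and 0.21, Ucp1 goes from 0 to no more than 1.16 FPKM, and Saa3, Cxcl5, Lcn2 and Cebpd stand lower at day 7.

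Genes of fat handling were among the largest increases. Fabp4, the adipocyte fatty acid binding protein (chromosome 3, 10204347 to 10208576), was at 20.8, 15.7 and 18.2 FPKM at day 0 and by day 7 at 14500, 14700 and 14600 FPKM, a difference of 801-fold by the means. It was the 4362nd most abundant gene per length at day 0 and the 1st at day 7. Cd36, a fatty acid translocase (chromosome 5, 17287508 to 17394777), was at 0.191, 0.27 and 0.285 FPKM and then 688, 736 and 711 FPKM. Lpl, which frees fatty acids from lipoproteins, had a higher start, at 58.9, 57.3 and 63.5 FPKM, and reached 1620, 1600 and 1680 FPKM, 27.3-fold. Of the 10 genes of fatty acid uptake and binding tested, 7 rose and 0 fell, with a median of 4.78. Aqp7, a glycerol channel, was at no more than 2 reads in any day 0 library and at 51 to 55.2 FPKM at day 7. Acsl1, which couples fatty acids to coenzyme A, rose 40.3-fold from 14.6 to 17.1 to 615 to 651 FPKM.

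Genes of fatty acid synthesis rose in part. Of 15 tested, 9 rose and 0 fell, with a median of 2.36. Fasn, fatty acid synthase, was at 81.1, 70.9 and 73.6 FPKM and then 636, 598 and 649 FPKM, 8.35-fold. Scd1, which desaturates stearate, was at 57.9, 57.1 and 60.8 FPKM and then 1860, 1980 and 1980 FPKM, 33.1-fold. The sugar-responsive factor Mlxipl (ChREBP) rose from 0.402 to 0.606 FPKM to 37.2 to 38.9 FPKM, and Thrsp, a regulator of lipogenesis, was at no more than 0.0961 FPKM before and at 102 to 106 FPKM after. Acss2, which makes acetyl-CoA from acetate, rose 18.6-fold. Not every step of the pathway rose, and by adjusted p alone 2 of the 15 were lower. Elovl6, a fatty acid elongase and the lowest member, had a change of −1.12, a decrease under the fold limit.

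Triglyceride synthesis and glyceroneogenesis held the largest change of any gene. Gpd1, which makes glycerol 3-phosphate (chromosome 15, 99547946 to 99555436), was at 0.977, 0.723 and 1.31 FPKM at day 0, with at most 39 reads, and at 1780, 1730 and 1850 FPKM at day 7. The increase of 9.81 ± 0.09 on the log2 scale had an adjusted p of 8.51e-12. Of the 13 genes tested, 10 rose and 0 fell, with a median of 2.78. Agpat2, which adds the next acyl chain, rose 108-fold and Gpat3, which adds the first, 81.7-fold. Pck1, the cytosolic PEP carboxykinase of glyceroneogenesis, had 1 read in 1 day 0 library and 0 in the others, and was at 33.6, 34.8 and 40.1 FPKM at day 7.

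Proteins of the lipid droplet followed. Cidec, which fuses droplets into 1 large one (chromosome 6, 113374628 to 113385754), was at 0.491, 0.739 and 0.434 FPKM and then 1380, 1260 and 1370 FPKM, a log2 increase of 9.75. Plin1, the coat protein that gates access of lipases, was at 0.441, 0.663 and 0.536 FPKM and then 481, 452 and 485 FPKM. For both genes, day 0 was below 1 FPKM in each library and day 7 was above 400 FPKM. Of the 11 droplet proteins tested 8 rose and 0 fell, with a median of 3.83, and Plin4 (37.1-fold) and Fitm2 (20.5-fold) were among them. Plin3, the droplet coat protein found in most cells, was the lowest of them at −0.23 and was not called.

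Nearly all genes of fat release rose. Of the 12 genes of lipolysis and adrenergic signalling tested, 11 rose and 0 fell, with a median of 5.54, the highest of the 32 pathway lists. Of the 13 listed, 5 were below 1 FPKM in every day 0 library and 0 in every day 7 library. Members that passed the filter through day 7 alone could only rise, which favours increases in this count and median. The same limit holds for fatty acid uptake (3 and 1 of 11 listed) and synthesis (3 and 1 of 16). It also holds for triglyceride synthesis (2 and 0 of 13), droplet proteins (5 and 2 of 13) and adipokines (5 and 1 of 14). Pnpla2, the first lipase (ATGL), was at 6.01, 6.12 and 5.73 FPKM and then 508, 447 and 486 FPKM, 80.6-fold. Lipe, hormone-sensitive lipase, rose 77.6-fold, from 3.88 to 4.37 to 307 to 323 FPKM. The ATGL inhibitor G0s2 rose beside the enzyme it inhibits, from 2.56, 1.88 and 2.32 FPKM to 1190, 1150 and 1140 FPKM. Mgll, which cleaves the last fatty acid from glycerol, rose 238-fold, and Lgals12, a droplet lectin, from 0.0671 to 0.152 FPKM to 103 to 110 FPKM. The 5 lipid lists together took 0.545 to 0.557% of all reads at day 0 and 7.04 to 7.23% at day 7.

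**Figure D3:**
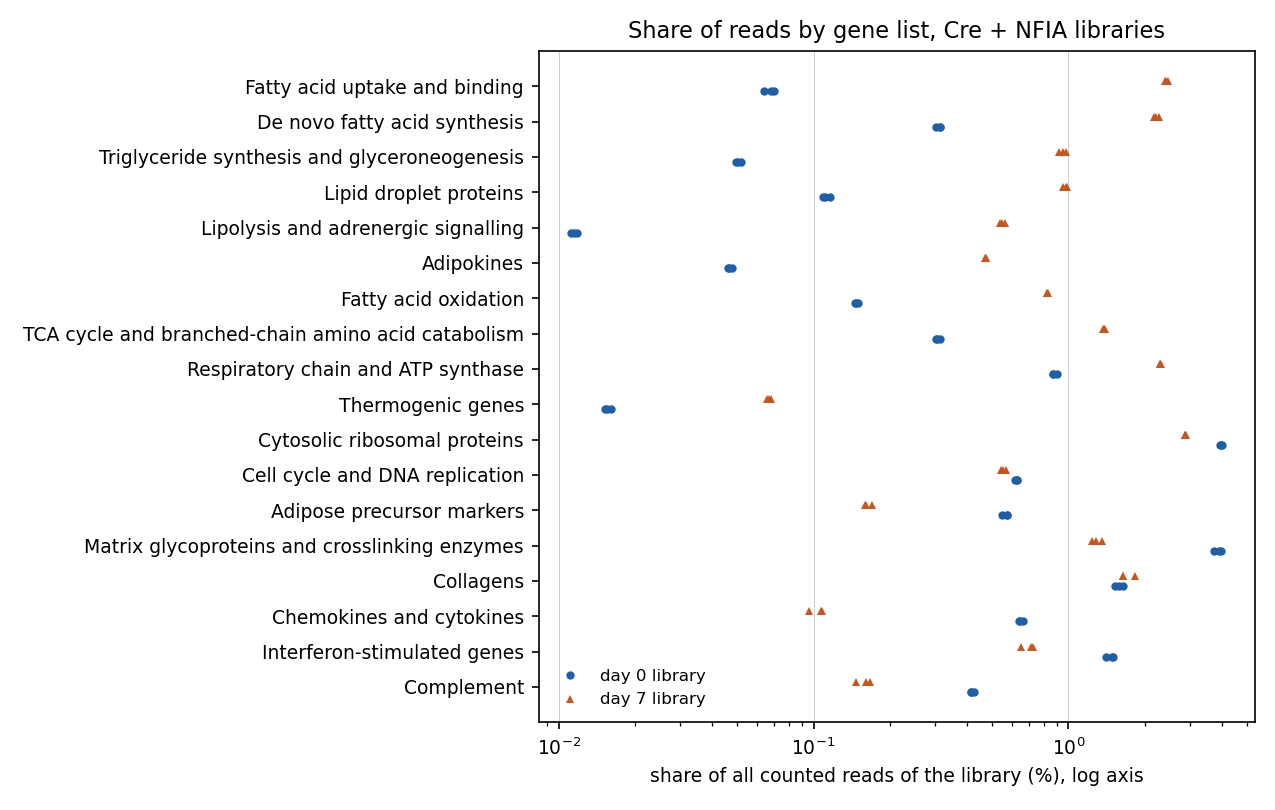
Share of all counted reads (%, log axis) taken by the genes of each list in each of the 3 day 0 (blue circles) and 3 day 7 (orange triangles) libraries of Cre + NFIA cells. Fatty acid uptake and binding moved from 0.064 to 0.0701% up to 2.4 to 2.45% and chemokines and cytokines from 0.64 to 0.663% down to 0.0957 to 0.108%, while cell cycle genes were at 0.619 to 0.63% and 0.543 to 0.571%.

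Secreted adipocyte products were among the most increased genes. Adipoq, adiponectin (chromosome 16, 23146609 to 23158101), was at 1.83, 1.38 and 1.21 FPKM and then 1810, 1720 and 1820 FPKM, a log2 increase of 9.51. Retn, resistin, was at 0.073, 0 and 0.363 FPKM and then 488, 495 and 440 FPKM. Rbp4, the retinol carrier, was at 0.868, 1.47 and 1.29 FPKM and then 307, 346 and 313 FPKM, and Cfd, the serine protease adipsin, had at most 1 read at day 0 and was at 132 to 146 FPKM at day 7. Of the 13 adipokines tested, 9 rose and 1 fell, with a median of 2.74. The gene that fell was Lcn2, lipocalin 2, an iron siderophore binder of inflammation (chromosome 2, 32240153 to 32243317), at 240, 216 and 224 FPKM and then 6.37, 6.3 and 5.21 FPKM, 38-fold lower. Lep, leptin, stayed under the 1 FPKM filter, with 0 to 0.0288 FPKM at day 0 and 0.105 to 0.274 FPKM at day 7.

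Of the 15 genes of insulin signalling and glucose transport, 4 rose and 0 fell, with a median of 1.17. Slc2a4, the insulin-regulated transporter GLUT4, was at 0.0331, 0.112 and 0.132 FPKM and then 46.2, 49.2 and 46.5 FPKM. The insulin receptor substrate Irs2 rose 6.54-fold and Tbc1d4, the Rab GTPase activator that acts before GLUT4 vesicles, 6.8-fold. Slc2a1, the transporter GLUT1 of most cells, had a change of −1.32 that was not called. Among 10 IGF pathway genes 4 rose and 0 fell, with a median of 0.48. Among the members with a mean of at least 5 FPKM the median was −0.443. Ghr, the growth hormone receptor, rose 6.48-fold, and its target Igf1 rose from 0.325 to 0.437 FPKM to 5.61 to 6.13 FPKM. Igfbp5, an IGF binding protein, rose from 0.0481 to 0.127 FPKM to 4.19 to 5.53 FPKM.

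Genes of fatty acid oxidation rose, and those of the TCA cycle and respiratory chain passed the 3-fold limit in part. Of 23 fatty acid oxidation genes tested, 21 rose and 0 fell, with a median of 2.5, and all 23 were higher by adjusted p. Acaa1b, a peroxisomal thiolase, rose 53.3-fold from 2.18 to 2.75 FPKM to 121 to 147 FPKM, the mitochondrial thiolase Acaa2 10.3-fold and Acadl, long-chain acyl-CoA dehydrogenase, 9.45-fold. Pex11a, which divides peroxisomes, rose 18.6-fold, and it was also 1 of the 11 genes of peroxisome and glutathione defence that rose among 27 tested (median 0.92). In that list Mgst3, a microsomal glutathione transferase, rose 16.6-fold, Pex16, a membrane biogenesis factor, 15.4-fold, and catalase (Cat) 13.8-fold. Cpt1a, which admits fatty acids to mitochondria, was the lowest of the oxidation genes at 0.87 and was not called.

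Of 33 genes of the TCA cycle and branched-chain amino acid catabolism, 18 rose and 0 fell, with a median of 1.60, and all 33 were higher by adjusted p. Pcx, pyruvate carboxylase, which refills the cycle and supplies citrate for lipogenesis, was at 19.3, 19 and 18.1 FPKM and then 747, 703 and 744 FPKM, 38.9-fold. Idh3a, a subunit of the NAD-linked isocitrate dehydrogenase, rose 9.7-fold, Bckdhb of the branched-chain ketoacid dehydrogenase 7.99-fold and Cs, citrate synthase, 5.9-fold. For the 84 subunits and assembly genes of the respiratory chain and ATP synthase the median was 1.30, a smaller shift shared by many genes. Of these 84, 82 were higher by adjusted p, and 18 passed the fold limit. Cycs, cytochrome c, rose 7.35-fold and Cyc1, cytochrome c1, 4.42-fold.

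Ribosomal proteins of the 2 compartments differed in direction. Of 78 mitochondrial ribosomal proteins 75 were higher and 1 lower by adjusted p, with a median of 0.72, although only Mrpl12 (3.75-fold) and Mrps6 (3.34-fold) were called as risen. Of 81 cytosolic ribosomal proteins 4 were higher and 68 lower by adjusted p, with a median of −0.42, and 0 passed the fold limit in limma (72 had an unadjusted p under 0.05) or in voom. With median-of-ratios and quantile scaling the medians were 0.80 and 0.66 for the mitochondrial and −0.34 and −0.48 for the cytosolic proteins. Cytosolic ribosomal proteins took 3.94 to 4.01% of reads at day 0 and 2.86 to 2.89% at day 7, and the respiratory list 0.87 to 0.898% and 2.29 to 2.31%.

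**Figure D4:**
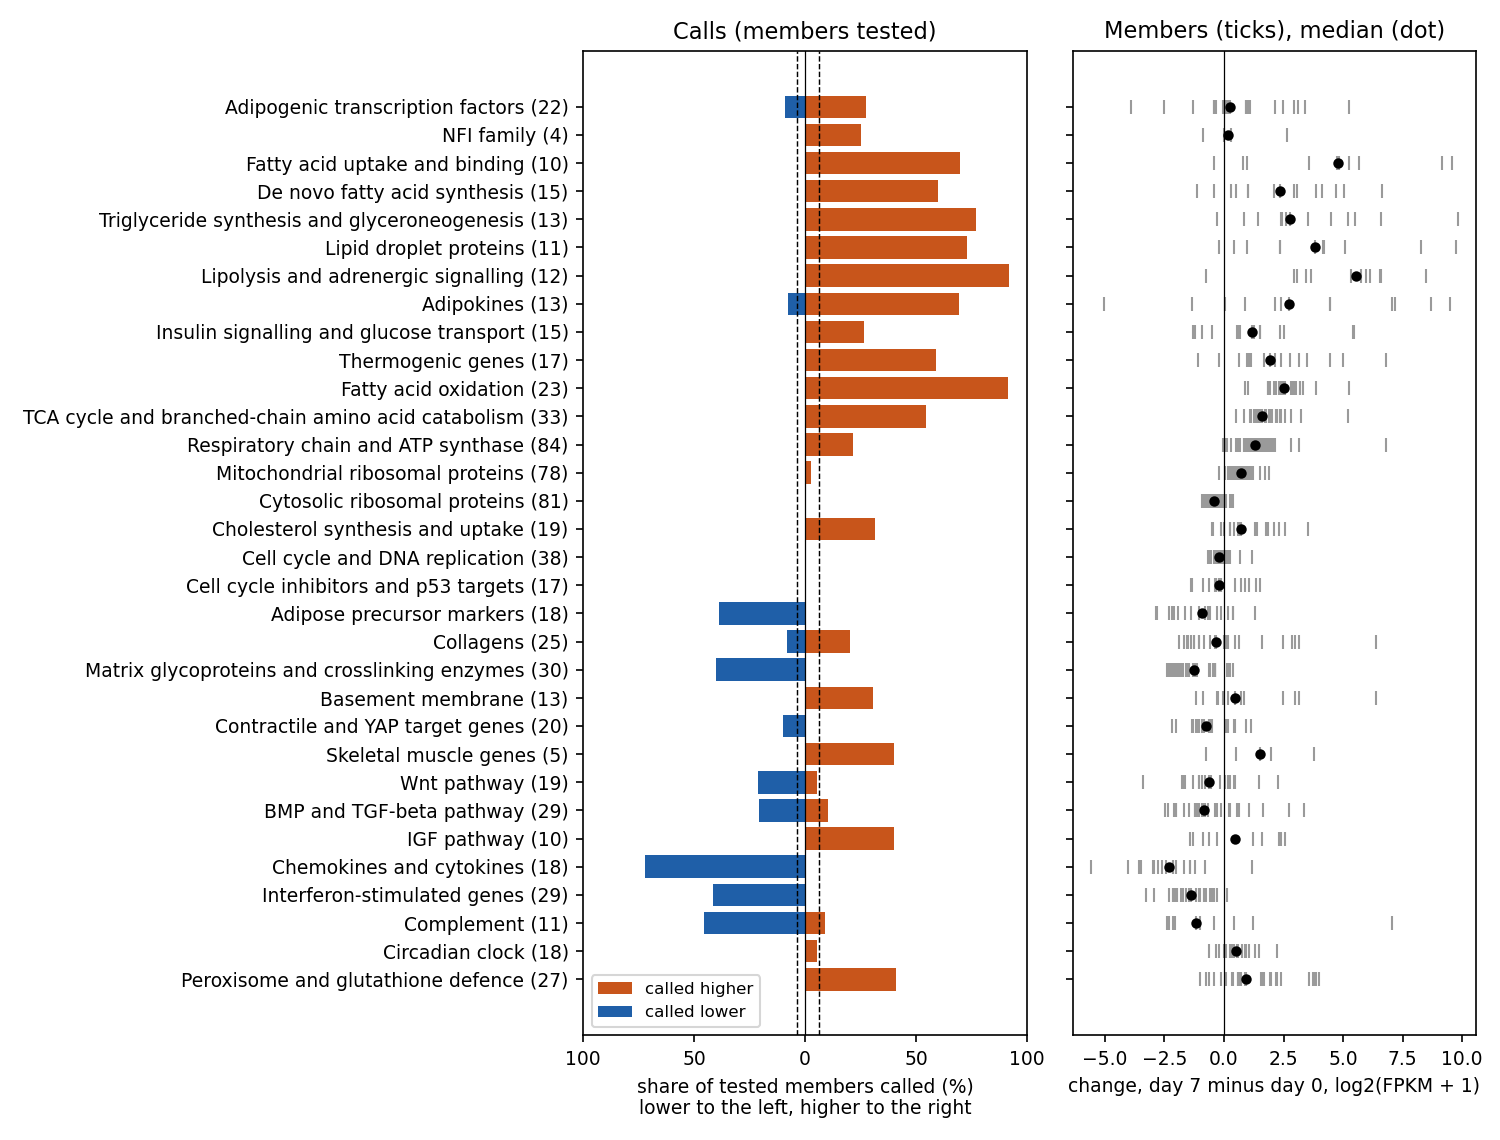
Share of the tested members of each list that were called higher (orange, to the right) or lower (blue, to the left) at day 7 against day 0, with the number tested in brackets, and beside it the change of each member (ticks) and the median (dot) on the log2(FPKM + 1) scale. The dashed lines give the shares over all genes (6.12% higher and 3.51% lower), and fatty acid oxidation (21 of 23) and lipolysis (11 of 12) extend farthest to the right and chemokines and cytokines (13 of 18) farthest to the left.

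Thermogenic genes were raised in part. Of 24 listed, 17 passed the filter, of which 10 rose and 0 fell, with a median of 1.94. Of the 24, 16 were below 1 FPKM in every day 0 library and 6 in every day 7 library. Some members thus passed the filter through day 7 alone, which favours increases in this count and median. Ucp1, the uncoupling protein that defines thermogenic fat, had 0 reads in all 3 day 0 libraries and was at 0.815, 0.634 and 1.16 FPKM at day 7, with at most 28 reads, and so did not pass the filter. Cidea, a droplet protein of brown fat, was at 0 and then 0.256, 0.482 and 0.646 FPKM, and Dio2, which activates thyroid hormone, at 0 and then 0.0232, 0.0125 and 0 FPKM. The labels of these libraries name no forskolin, which the study used to raise cyclic AMP for some measurements of Ucp1. In these libraries the levels of Ucp1, Cidea and Dio2 were at or near the edge of detection at day 7. Other genes of the list were not. Cox8b, a cytochrome c oxidase subunit of brown fat and muscle (chromosome 7, 148084842 to 148086345), had 0 reads at day 0 and was at 110, 115 and 107 FPKM at day 7, at least 411-fold higher against a floor of 3 reads over the day 0 group. Elovl3, a very long chain elongase of brown fat, had at most 1 read in a day 0 library and was at 29.5, 32.8 and 35 FPKM at day 7. Kcnk3, a potassium channel, was at 0 to 0.0492 FPKM and then 20.5 to 22.6 FPKM.

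The coactivators of the program were also higher. Ppargc1a, PGC-1α, was at 0, 0.0161 and 0.0283 FPKM and then 5.91, 6.13 and 5.55 FPKM, with an increase of 2.76 ± 0.09 on the log2(FPKM + 1) scale (adjusted p = 1.08e-08). Ppargc1b was at 0.077 to 0.174 FPKM and then 10.8 to 12.4 FPKM, and Ppara, the nuclear receptor of fat oxidation, at 0.149 to 0.422 and then 4.33 to 4.72 FPKM. Cox7a1, a heart, muscle and brown fat form of a cytochrome c oxidase subunit, rose 20-fold to 13, 14.7 and 15.3 FPKM from 0.769, 0.868 and 0.51 FPKM. Prdm16, a determinant of brown fat identity, was at 1.2, 1.27 and 1.34 FPKM and then 2.45, 2.47 and 2.66 FPKM. Its libraries did not overlap, and its change of 0.64 was under the fold limit.

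Among 19 cholesterol genes 6 rose and 0 fell, with a median of 0.73. Insig1, which retains the sterol sensor in the endoplasmic reticulum, rose 11.8-fold, and the synthesis enzymes Pmvk, Nsdhl and Sc5d rose 6-fold, 5.06-fold and 4.43-fold.

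Outside the lists the most increased genes included Adig (adipogenin), at 0.297, 0 and 0 FPKM and then 449, 474 and 489 FPKM, and Ppp1r1a, an inhibitor of protein phosphatase 1, with at most 1 read in a day 0 library and 208 to 214 FPKM at day 7. Aldh1a7, an aldehyde dehydrogenase, rose to 261 to 276 FPKM, Cmbl, a hydrolase, to 256 to 266 FPKM and Cdo1, cysteine dioxygenase, to 547 to 552 FPKM. Mrap, the accessory protein of the ACTH receptor, rose from 0.214 to 0.284 FPKM to 158 to 197 FPKM. Of the 730 genes that rose, 256 (35.1%) had at least 1 FPKM only at day 7, whereas 36 (8.6%) of the 419 genes that fell had it only at day 0. Of all 11923 genes tested, 480 had at least 1 FPKM only at day 7 and 274 only at day 0. The filter admits such genes through 1 day alone, and depth was higher at day 7, so these shares are given as a description.

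Chemokines and acute phase genes were among the largest decreases. Saa3, an acute phase serum amyloid (chromosome 7, 53967368 to 53971046), was at 1300, 1070 and 1100 FPKM at day 0 and by day 7 at 19.9, 16.3 and 21.8 FPKM, 59.8-fold lower. Cxcl5, a neutrophil chemokine (chromosome 5, 91188325 to 91190651), was at 215, 181 and 204 FPKM and then 3.28, 2.62 and 3.72 FPKM, 62.5-fold lower. Cxcl1, another, was at 259, 245 and 241 FPKM and then 14.3, 13 and 15.3 FPKM, 17.5-fold lower. In each of these genes the highest day 7 library stood far below the lowest day 0 library. The monocyte chemokine Ccl2 fell 11.8-fold, from 1220, 1180 and 1210 FPKM to 112, 86.2 and 107 FPKM, and Ccl7 11.3-fold. Of the 18 chemokines and cytokines tested 13 fell and 0 rose, with a median of −2.30. Ptx3, a pentraxin of innate immunity, fell 14.1-fold to 46.5 to 46.8 FPKM, and Nos2, the inducible nitric oxide synthase, was at 12.5, 13 and 11.8 FPKM and then 0.0173, 0.0187 and 0 FPKM. Among 11 complement genes 5 fell and 1 rose, with a median of −1.18. Serping1, the C1 inhibitor, fell 6.1-fold, C1ra, a protease of the first component, 5.04-fold, and Cfb, factor B of the alternative pathway, 4.49-fold, and Cfd was the one that rose. The macrophage and leukocyte markers given above moved with this group, with Ptprc and Adgre1 at 0 reads, and their part in it was not tested.

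Interferon-stimulated genes were lower together. Of 29 tested, 12 fell and 0 rose, with a median of −1.39, and 28 were lower by adjusted p. Mx1, an antiviral GTPase, was at 36.2, 44.2 and 47.9 FPKM at day 0 and by day 7 at 4.55, 2.27 and 3.86 FPKM, 12-fold lower. Ifi44 was at 144, 165 and 181 FPKM and then 24.1, 15.4 and 23 FPKM, and Stat2, a transcription factor of interferon signalling, at 246, 234 and 251 FPKM and then 52.7, 40.6 and 51.5 FPKM. Oas3, a sensor of double-stranded RNA that was among the 15 most decreased genes of all, fell from 50.2, 56.3 and 53.6 FPKM to 5.08, 3.57 and 5.19 FPKM, 11.6-fold. Day 7 replicate 2 was the lowest library in each of these 4 genes.

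The promoters of genes that changed were searched on both strands for 5 motifs, in RefSeq windows of 250 bases before to 50 bases after each start on GRCm38.p6, an assembly used for sequence only. The interferon response core GAAANNGAAA was in 3.44% of all 32851 promoters, 3.05% of 11679 promoters of tested genes, 1.87% of 694 promoters of genes that rose and 10.1% of 407 promoters of genes that fell. In the interferon list it was in 35.7%, 10 of 28 promoters. The κB letters GGGANTTTCC were in 0.411% of all promoters, 0.428% of those of tested genes, 0.144% for genes that rose, 1.72% for genes that fell and 25% (3 of 12) of the chemokine and cytokine promoters. The C/EBP palindrome TTGCGCAA was in 0.183% of all promoters, 0.317% of those of tested genes, 0.288% (2 promoters) for genes that rose and 0.737% (3 promoters) for genes that fell. The nuclear factor I palindrome was in 0.0365% of all promoters and the direct repeat AGGTCANAGGTCA, which PPARγ binds with RXR, in 0.0396%, and each was in 0 of the 694 promoters of genes that rose. Among genes that fell the first was in 1 promoter (0.246%) and the direct repeat in 0. These are matches of letters and were not tested as binding sites, and a window without them says only that these letters are not in it. The 250 bases before the start of 5 promoters with a match are printed as examples from genes that fell, with the matched letters in capitals (Isg15, an interferon-induced ubiquitin-like protein, was chosen after its values were seen, for its 3 overlapping matches, which share letters). The match is to the κB letters in Cxcl1 (plus strand, chr5:90890995-90891244, 71 bases before the start) and to the interferon core in Isg15 (minus strand, chr4:156200819-156201068, from 78 bases before), Oas3 (minus strand, chr5:120777660-120777909, 75 bases before), Saa3 (minus strand, chr7:46715677-46715926, 125 bases before) and Stat2 (plus strand, chr10:128270248-128270497, 222 bases before, on the opposite strand).
Cxcl1: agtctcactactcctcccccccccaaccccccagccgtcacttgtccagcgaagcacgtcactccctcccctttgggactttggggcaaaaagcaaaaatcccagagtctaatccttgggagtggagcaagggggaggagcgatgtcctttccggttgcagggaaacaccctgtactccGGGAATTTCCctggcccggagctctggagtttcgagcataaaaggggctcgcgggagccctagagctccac
Isg15: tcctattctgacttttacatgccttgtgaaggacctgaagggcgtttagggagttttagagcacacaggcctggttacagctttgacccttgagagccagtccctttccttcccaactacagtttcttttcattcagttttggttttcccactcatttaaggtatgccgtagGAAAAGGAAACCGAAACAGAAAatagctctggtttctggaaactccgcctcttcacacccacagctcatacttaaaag
Oas3: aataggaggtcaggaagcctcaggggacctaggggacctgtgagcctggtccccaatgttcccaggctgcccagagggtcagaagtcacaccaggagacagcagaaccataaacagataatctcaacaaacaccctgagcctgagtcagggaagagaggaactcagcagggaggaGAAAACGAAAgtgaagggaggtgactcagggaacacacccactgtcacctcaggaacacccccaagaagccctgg
Saa3: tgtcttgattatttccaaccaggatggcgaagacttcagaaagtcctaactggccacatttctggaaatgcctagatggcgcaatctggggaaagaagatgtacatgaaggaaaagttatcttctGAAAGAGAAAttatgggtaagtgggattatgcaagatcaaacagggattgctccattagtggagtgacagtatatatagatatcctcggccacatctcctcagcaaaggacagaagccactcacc
Stat2: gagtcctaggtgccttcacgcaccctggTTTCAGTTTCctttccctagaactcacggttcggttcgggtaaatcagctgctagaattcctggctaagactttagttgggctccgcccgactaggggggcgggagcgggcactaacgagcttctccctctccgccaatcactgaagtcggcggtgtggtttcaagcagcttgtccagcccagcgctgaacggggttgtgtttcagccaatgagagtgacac

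Some precursor and matrix genes fell, and most members of both lists were not called. Cd34, a surface sialomucin of precursors, was at 215, 244 and 228 FPKM and then 30.6, 30 and 32.3 FPKM, 7.39-fold lower. Pdgfra, a growth factor receptor of precursors, was at 92.5, 91 and 101 FPKM and then 18.5, 16.3 and 19.2 FPKM, and Ly6a (Sca-1) at 1810, 1940 and 1880 FPKM and then 429, 413 and 473 FPKM. The days did not overlap in any of the 3, but none was lost, and Ly6a stayed above 400 FPKM. Of 18 precursor markers tested 7 fell and 0 rose, with a median of −0.92, and Anxa3, an annexin, fell 7.13-fold. Dlk1, a preadipocyte inhibitor, was low at both days (0.507 to 0.903 and 1.08 to 1.45 FPKM).

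Of 30 matrix glycoproteins and crosslinking enzymes, 12 fell and 0 rose, with a median of −1.26. Fn1, fibronectin, which took more reads than any other gene in 2 of the 3 day 0 libraries, was at 2000, 2050 and 1850 FPKM and then 409, 356 and 430 FPKM, 4.94-fold lower. Loxl4, a lysyl oxidase-like enzyme, fell 6.34-fold and Timp3, a metalloproteinase inhibitor, 4.8-fold. Collagens did not share 1 direction, with 5 of 25 higher, 2 lower and a median of −0.32. Col15a1, a basement membrane collagen, was at 1.04, 1.02 and 1.02 FPKM and rose to 166, 158 and 180 FPKM, 164-fold, and Col4a1, Col6a3 and Col5a3 rose 9.14-fold, 8.33-fold and 7.84-fold. The fibrillar Col1a1 was at 710, 677 and 627 FPKM and then 256, 277 and 304 FPKM, a change of −1.27 that was not called, while Col16a1 fell 3.79-fold. Of 13 basement membrane genes 4 rose and 0 fell, with a median of 0.48, and Lama4, a laminin chain around adipocytes, rose 8.49-fold and Col4a2 5.65-fold. As shares of reads, matrix glycoproteins went from 3.73 to 3.97% to 1.24 to 1.36%, and collagens from 1.52 to 1.63% to 1.63 to 1.83%.

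Signalling genes moved both ways. Sfrp2, a secreted Wnt modulator (chromosome 3, 83570243 to 83578238), was at 474, 458 and 448 FPKM and then 45.5, 39 and 42.1 FPKM, 10.9-fold lower. Wnt10b, a ligand that restrains adipogenesis, was at 4.89, 4.66 and 4.48 FPKM and then 0.468, 0.54 and 1.01 FPKM, and Wnt16, a ligand outside the list, fell 23.9-fold from 17 to 19.4 to 0.657 to 0.849 FPKM. Of 19 Wnt pathway genes 4 fell and 1 rose, with a median of −0.61. The receptors Fzd2 and Fzd4 went opposite ways, with Fzd2 3.77-fold lower and Fzd4 6.2-fold higher. Wnt5a was at 0.917 to 1.19 and then 1.56 to 1.96 FPKM, a change of 0.45 that was not called. Of 29 BMP and TGF-beta genes 6 fell and 3 rose, with a median of −0.84. Ltbp1, which stores latent TGF-beta, fell 5.95-fold, Fstl1 5.17-fold and Id2, a BMP target, 4.52-fold. Acvr1c, the activin receptor ALK7 of adipocytes, had at most 1 read in a day 0 library and was at 8.86, 9.73 and 9.34 FPKM at day 7, and Chrdl1, a BMP antagonist, rose 16.3-fold. The amino acid transporter Slc6a17 and the receptor Epha1, both among the 15 most decreased genes, fell 14.1-fold and 30.7-fold.

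Proliferation genes, in contrast, were not called. Mki67, the proliferation antigen, was at 28.9, 28.6 and 28.4 FPKM and then 33.2, 35.3 and 31.4 FPKM, a change of 0.21. Of 38 cell cycle and DNA replication genes 0 were called by limma, with a range from −0.69 (Mcm4) to 1.16 (Ccne2) and a median of −0.22, although 5 were higher and 22 lower by adjusted p alone (34.2% and 40.6% of all genes tested), 28 had an unadjusted p under 0.05, and voom on the recovered reads called 0. With median-of-ratios scaling 11 were higher and 21 lower, with a median of −0.14. Of 17 cell cycle inhibitors and p53 targets 0 were called, from −1.39 (Cdkn2b) to 1.51 (Cdkn2c), with 6 higher and 9 lower by adjusted p alone and 15 at an unadjusted p under 0.05, and voom called 1. The share that was higher lay near that of all genes tested. These cells carry SV40 large T antigen, which binds the retinoblastoma and p53 proteins.

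Of 20 contractile and YAP target genes 2 fell and 0 rose, with a median of −0.75. They were Ankrd1 (4.85-fold) and Cyr61 (4.12-fold), both induced by YAP, whereas the smooth muscle genes Acta2 and Myl9 were not called, at 69.2 to 78 and 75.5 to 90.4 FPKM and at 15.9 to 20.4 and 23.2 to 28.6 FPKM. Of 25 skeletal muscle genes 5 passed the filter, 2 rose and 0 fell, with a median of 1.52. Of the 25, 22 were below 1 FPKM in every day 0 library and 19 in every day 7 library. Both genes that rose were below 1 FPKM at day 0 and passed the filter through day 7 alone, so the filter set their direction. Tnnc2, fast troponin C, had 1 read in 1 day 0 library and was at 14.1, 14.1 and 12.3 FPKM at day 7, and Acta1, skeletal actin, rose 7.59-fold to 5.4 to 6.43 FPKM. The myogenic factor Myod1 was at 0 reads in all 6 libraries, and Myog was at 0 in 5 libraries and at 0.139 FPKM in day 7 replicate 3.

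The day effect of Cre + NFIA cells was then compared with that of each other cell type, as the signed difference of the 2 day effects (day 7 minus day 0) in a limma model of all 24 libraries, over 12640 genes with at least 1 FPKM in at least 3 of them. The question is where Cre + NFIA cells differ from the other cells in how they change between the days. Ctrl cells have no Cre and keep the endogenous gene, with Nfia at 6.23 to 6.75 FPKM at day 0 against 69.7 to 74.9 FPKM in Cre + NFIA. The comparison with ctrl is thus not one of NFIA with its absence. The 3 comparisons share the Cre + NFIA libraries and are therefore not independent. Against ctrl, 28 genes (0.222%) had a larger and 21 (0.166%) a smaller day effect. Against Cre these were 215 (1.7%) and 146 (1.16%), and against Cre + NFIA Δpro#3 they were 575 (4.55%) and 312 (2.47%). Median-of-ratios scaling moved the median of all genes by 0.110 against Cre and 0.115 against Cre + NFIA Δpro#3 and gave 261 and 106 genes and 655 and 216 genes, so the share of larger effects was 71.1% in place of 59.6% and 75.2% in place of 64.8%.

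**Figure D5:**
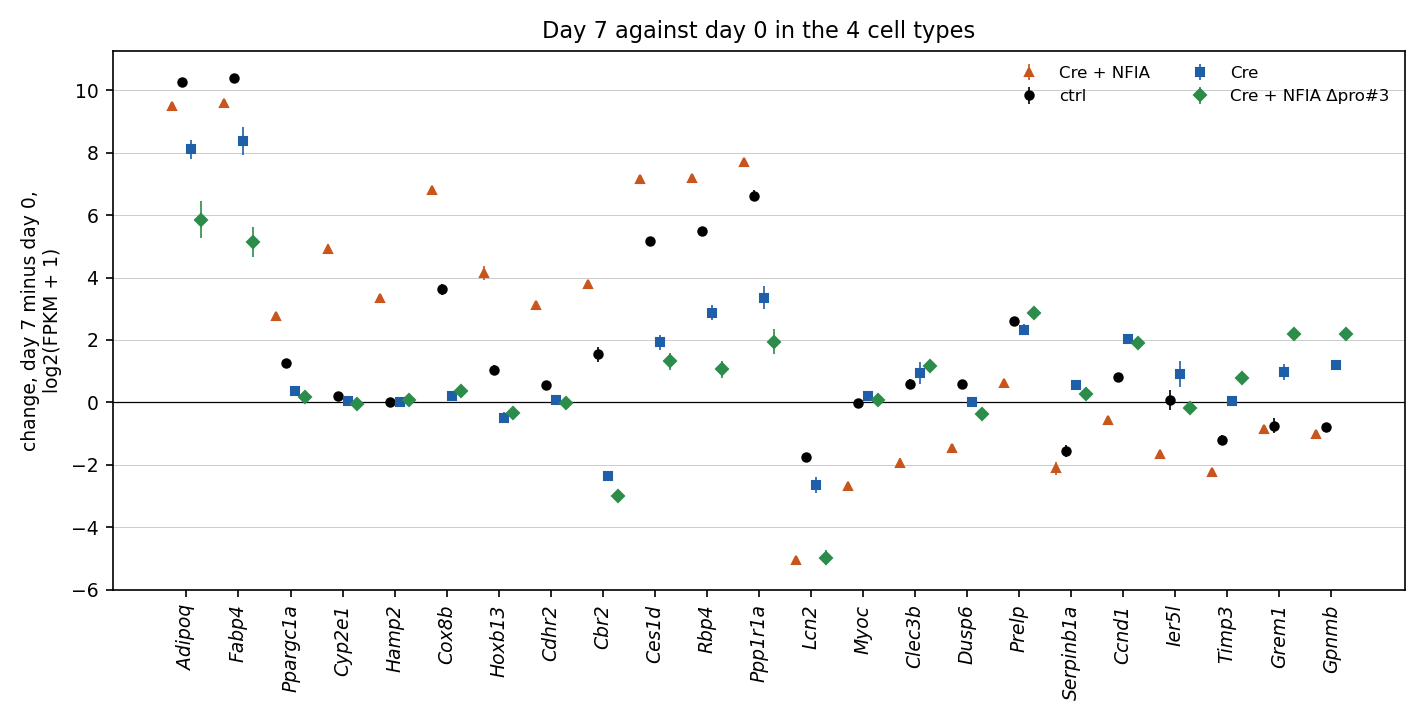
Day 7 minus day 0 difference of the mean log2(FPKM + 1) (vertical axis) in the 4 cell types, 1 symbol a cell type with the standard error from 3 libraries a day as a bar, for the genes on the horizontal axis. Adipoq is far above 0 in all 4 cell types (9.51, 10.27, 8.11 and 5.86 in Cre + NFIA, ctrl, Cre and Cre + NFIA Δpro#3), Cyp2e1 and Hamp2 are above 3 in Cre + NFIA cells alone among these 4, and Cbr2 is above 0 in Cre + NFIA and ctrl and below 0 in the others.

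Among the 730 genes that rose in Cre + NFIA cells, 19 (2.6%) rose by more there than in ctrl, 204 (27.9%) more than in Cre and 534 (73.2%) more than in Cre + NFIA Δpro#3 cells. Their median day change was 2.35 in Cre + NFIA, 2.24 in ctrl, 1.16 in Cre and 0.45 in Cre + NFIA Δpro#3 cells. Among the 419 that fell, 8 (1.91%) fell by more there than in ctrl, 75 (17.9%) more than in Cre and 152 (36.3%) more than in Cre + NFIA Δpro#3 cells. Their median day changes in the same order of cell types were −1.95, −1.69, −0.84 and −0.60. The genes were chosen on the Cre + NFIA values, which favours larger changes there, and these shares and medians are given as a description.

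By list and with the fold limit, few genes differed from ctrl and many from Cre + NFIA Δpro#3. By adjusted p alone, in the model of 24 libraries, the day effect of 62 of 82 cytosolic ribosomal genes was lower than in ctrl. It was higher for 0 of them. Of 38 cell cycle and DNA replication genes, 26 were lower and 1 higher, beside 13.5% and 9.83% of all genes tested. Unless stated, the members counted are those that passed the filter in the 6 Cre + NFIA libraries. This favours members that are high in Cre + NFIA cells, and the counts and medians are given as a description. Of 12 lipolysis genes, the day effect was larger for 0 against ctrl, 4 against Cre and 11 against Cre + NFIA Δpro#3. Of 23 fatty acid oxidation genes these were 0, 2 and 21, and of 17 thermogenic genes 1, 5 and 10. Against ctrl, 3 of the 13 lipolysis genes in the model of 24 libraries and 5 of 23 oxidation genes had an unadjusted p under 0.05. Voom called 0 of them. The median of the thermogenic list was 1.94 in Cre + NFIA, 1.28 in ctrl, 0.27 in Cre and 0.13 in Cre + NFIA Δpro#3 cells. Matrix glycoproteins had a median of −1.26 in Cre + NFIA and −1.24 in ctrl but −0.04 in Cre and 0.22 in Cre + NFIA Δpro#3 cells. Smaller signed day effects, meaning a shift toward decrease in Cre + NFIA cells, were found for 0, 6 and 13 of 30 genes. In the model of 24 libraries these were 0, 6 and 14 of 32. Interferon-stimulated genes had medians of −1.39, −1.58, −0.96 and −0.99. With the fold limit 0 of 29 were called in each of the 3 comparisons by limma and by voom. By adjusted p alone the day effect of 15 of the 29 was larger and of 1 smaller than in ctrl, beside 9.83% and 13.5% of all genes tested. Against Cre 4 were larger and 15 smaller, beside 18.8% and 30.1% of all genes, so the share of larger effects lay near that of all genes. Against Cre + NFIA Δpro#3 cells 5 were larger and 17 smaller, beside 24.3% and 35% of all genes. An unadjusted p under 0.05 was found for 21, 20 and 24 of them. A larger day effect here means a smaller decrease.

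The 4 cell types were also compared for 2 genes of the adipocyte program. For Adipoq the day effect was 9.51 in Cre + NFIA, 10.27 in ctrl, 8.11 in Cre and 5.86 in Cre + NFIA Δpro#3 cells on the log2 scale, and day 7 levels were 1790 to 1960 FPKM in ctrl, 320 to 655 FPKM in Cre and 51.1 to 158 FPKM in Cre + NFIA Δpro#3 cells. The difference from ctrl was −0.77 (adjusted p = 0.219) and was not called, and that from Cre + NFIA Δpro#3 was 3.65 (adjusted p = 4.21e-07). The day effect of Pparg differed from ctrl by −0.36 (adjusted p = 0.329), from Cre by 0.50 (adjusted p = 0.112) and from Cre + NFIA Δpro#3 by 1.67 (adjusted p = 8.58e-06).

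The largest upward differences from ctrl were genes that rose to a level ctrl did not reach. Cyp2e1, a cytochrome P450 that oxidises ethanol and acetone (chromosome 7, 147949638 to 147960874), had 0 reads at day 0 and was at 29.5, 34.8 and 24.5 FPKM at day 7, at least 524-fold higher, against 0.328, 0.274 and 0 FPKM in ctrl at day 7. The difference of day effects was 4.72 ± 0.17 (adjusted p = 1.4e-13). Hamp2, a hepcidin gene (chromosome 7, 31707391 to 31709200) whose value is uncertain because Hamp is close to it in sequence, was at 0 and then 8.69, 11 and 7.98 FPKM, at least 41.1-fold higher, and had 0 reads in ctrl at both days. Cox8b was at 9.87, 14.4 and 12.7 FPKM in ctrl at day 7, 0 to 0.249 FPKM in Cre and 0.217 to 0.455 FPKM in Cre + NFIA Δpro#3 cells, against the 107 to 115 FPKM given above. Its day effect was larger than in ctrl by 3.18, in Cre by 6.59 and in Cre + NFIA Δpro#3 by 6.42. Hoxb13, a posterior homeobox factor, was at 0.343, 1.24 and 0.886 FPKM and then 30.2, 31 and 30.2 FPKM, and reached 1.6 to 2.57 FPKM in ctrl. Cdhr2, a protocadherin of the brush border, reached 7.52 to 8.16 FPKM and in ctrl 0.416 to 0.618 FPKM.

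The largest downward differences were in Lcn2, Myoc, Clec3b, Dusp6 and Prelp, and each of these genes was higher at day 0 in Cre + NFIA than in ctrl cells. At day 7 Lcn2, Dusp6 and Prelp were lower than in ctrl, so their levels differed at both days and in opposite order. Lcn2 began at 216 to 240 FPKM in Cre + NFIA and at 58.3 to 64 FPKM in ctrl, and ended at 5.21 to 6.37 and 16.8 to 18.4 FPKM, a difference of −3.28 ± 0.24 (adjusted p = 1.04e-08). Myoc, the secreted protein myocilin, was at 8.25, 10.2 and 10.3 FPKM at day 0 and by day 7 at 0.823, 0.54 and 0.625 FPKM and did not exceed 0.147 FPKM in ctrl. Clec3b, the plasminogen-binding tetranectin, went from 69.4, 78.6 and 68.5 FPKM to 21.7, 17.1 and 16.2 FPKM, whereas ctrl was at 10.2, 12.3 and 11.6 and then 20.7, 17.1 and 15.5 FPKM, so the 2 cell types overlapped at day 7 but not at day 0. Dusp6, a phosphatase of ERK, was at 14.6 to 17.6 and then 5.11 to 5.46 FPKM and in ctrl at 6.64 to 7.61 and then 10.5 to 11.6 FPKM. Its own day change of −1.45 was not called, and the difference from ctrl was −2.03. Prelp, a leucine-rich proteoglycan, was at 29.5 to 36.2 and then 47.5 to 54.8 FPKM and in ctrl at 14.2 to 15.7 and then 91.7 to 99.5 FPKM, a difference of −1.99.

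Against Cre and Cre + NFIA Δpro#3 cells, Cbr2, a carbonyl reductase, had opposite day effects. It was at 13.2, 12.3 and 11.5 FPKM and then 179, 179 and 197 FPKM in Cre + NFIA cells, at 18.4 to 20 and then 2.48 to 3.64 FPKM in Cre cells and at 24.1 to 32 and then 2.27 to 2.78 FPKM in Cre + NFIA Δpro#3 cells, with differences of 6.15 and 6.80. Ces1d, a triglyceride hydrolase, reached 151, 157 and 151 FPKM in Cre + NFIA, 1.93 to 4.22 FPKM in Cre and 0.741 to 2.1 FPKM in Cre + NFIA Δpro#3 cells. Ccnd1, cyclin D1, was at 18.4 to 19.8 and then 11.4 to 13.7 FPKM in Cre + NFIA cells and at 3.47 to 4.12 and then 18.3 to 19.5 FPKM in Cre cells. The order of the 2 cell types for Ccnd1 was thus opposite at day 0 and day 7, with a difference of day effects of −2.60 (adjusted p = 3.01e-11). Gpnmb, a transmembrane glycoprotein of lysosomes, was at 13.2 to 16.5 FPKM at day 7 in Cre + NFIA and at 138 to 147 FPKM in Cre + NFIA Δpro#3 cells from 30.7 to 32 and 29.8 to 32.8 FPKM at day 0, and Grem1, a BMP antagonist, at 2.1 to 2.88 and 29.7 to 34.2 FPKM at day 7.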

How the data were processed

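RNA was measured in polyA-selected, stranded mRNA libraries, 24 in all, labelled by cell type, day and replicate, of which 6 enter the day comparison. Per the labels, the authors aligned reads with STAR 2.5.3a to mm9, kept reads with a single alignment, took the counts of the matched strand for each gene, and deposited FPKM, normalised to gene length and library total. Each deposited value (100%) was, within 0.01, a whole number of reads once divided by what 1 read is worth, which gave the reads per gene and the library totals. In Cre + NFIA cells the totals ranged over 9.44 to 10.72 M before differentiation and over 12.46 to 14.62 M after it. The floor of 3 reads covers counting error only, because reads carry no molecular identifiers. Gene symbols that read as dates (16 of the genes tested) are not named, and values of short genes, of which 27 called genes were under 200 bases, and of close gene families are uncertain.

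Genes that reached 1 FPKM in 3 or more libraries entered two-sided tests on log2(FPKM + 1), a scale that makes changes of low genes smaller. The tests were fitted by limma 3.58.1 (R 4.3.3), trend option on, with Benjamini-Hochberg adjustment over all genes tested (11923 for the day comparison, 12640 for differences between day effects, in a model of all 24 libraries). Calls needed a 3-fold change or more besides an adjusted p below 0.05. Named genes were the genes the study is about, up to 4 higher and 3 lower of the largest called changes of each list without overlap between days, the 15 largest in each direction, and 5 in each direction for each difference. Members named for standing at the low end of a list (Elovl6, Plin3, Slc2a1 and Cpt1a) were chosen after their values were seen. Some genes that the rule names are not reported here. The members, lists and tests were chosen with earlier results of these data known. Nothing in the labels says that replicates were separate cultures, so p-values measure the spread between these libraries, which may be technical. Replicates differed by a chi-square over genes of 2.95 to 5.79 per degree of freedom, so none repeated another. Day 0 and day 7 libraries that carry the same number correlated by 0.081, 0.0938 and −0.0174 after the group mean was taken off, so the numbers were not taken as pairs.

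Alternatives were pseudocounts of 0.1 and 5, no filter, a filter at a mean of 5 FPKM, scaling by median of ratios or by quantiles, no trend, the replicate block, limma voom on recovered reads, other fold limits, all 24 libraries in the model and each library left out. Thinned reads and the scaling without a fold limit were added after seeing the data. On simulated data with known 6-fold changes limma recovered 181 of 199 changed genes in the day comparison among 11446 tested, with 1 false call, and 179 of 200 in the difference from ctrl among 12061 tested, with 1 false call. There, all other genes were left unchanged, increases equalled decreases in number, and the spread between libraries was set. In the data most genes passed the adjusted p and the shares of reads shifted. A false call also had to pass the 3-fold limit, so these counts do not give the error rate in the data. Positions (1-based) were found for 153 of 154 named genes in GENCODE vM1, whose assembly NCBIM37 is that of mm9. Promoter sequences are from RefSeq on GRCm38.p6, matched by symbol for 9175 of 11907 tested symbols.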

Additional observations from a re-analysis of the deposited data

Results flagged for a closer look

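Day effects that differed between cell types, each tested by the interaction term of limma across 24 libraries, are listed here with the size of the difference on the log2(FPKM + 1) scale, Cre + NFIA minus the other cell type. Against ctrl, 28 genes had a larger and 21 a smaller day effect. The largest differences upward were in Cyp2e1 (4.72), Hamp2 (3.34), Cox8b (3.18), Hoxb13 (3.09) and Cdhr2 (2.55), and those downward in Lcn2 (−3.28), Myoc (−2.63), Clec3b (−2.52), Dusp6 (−2.03) and Prelp (−1.99).

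Against Cre, 215 genes had a larger and 146 a smaller day effect. The upward differences were led by Cox8b (6.59), Cbr2 (6.15), Ces1d (5.23), Cyp2e1 (4.87) and Hoxb13 (4.63), and the downward ones by Clec3b (−2.87), Myoc (−2.86), the protease inhibitor Serpinb1a (−2.66), Ccnd1 (−2.60) and Ier5l (−2.57). Ier5l, an immediate early response gene, was at 21.6 to 23 FPKM at day 0 and 5.11 to 7.5 FPKM at day 7 in Cre + NFIA cells, and its day change of −1.67 was −1.536 without day 7 replicate 1, under the 3-fold limit.

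Against Cre + NFIA Δpro#3, 575 genes had a larger and 312 a smaller day effect. The upward differences were led by Cbr2 (6.80), Cox8b (6.42), Rbp4 (6.14), Ces1d (5.83) and Ppp1r1a (5.75), and the downward ones by Gpnmb (−3.19), Clec3b (−3.09), Grem1 (−3.03), Timp3 (−3.02) and Myoc (−2.76). Timp3 was at 211 to 227 FPKM and then 44.3 to 46.1 FPKM in Cre + NFIA cells, and at 45.7 to 50 and then 77.9 to 85.7 FPKM in Cre + NFIA Δpro#3 cells.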

How the results depend on the processing

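For day 7 against day 0 (730 higher and 419 lower), the counts moved by over 1.5 times with a pseudocount of 5 (397 higher, 187 lower), with a pseudocount of 0.1 (705 lower), with voom on recovered reads (749 lower), without a fold limit (4083 and 4837, or 4541 and 4354 with median-of-ratios scaling) and with a 2-fold limit (1358 and 1212). For the difference from ctrl (28 and 21) the values were 79 and 65 with a pseudocount of 0.1, 9 and 7 with 5, 10 and 13 with a mean FPKM of at least 5, 77 and 75 with voom, 1242 and 1701 without a fold limit and 125 and 115 with a 2-fold limit. For Cre (215 and 146) they were 349 and 399 with a pseudocount of 0.1, 99 and 41 with 5, 323 and 466 with voom, 2378 and 3805 without a fold limit and 670 and 760 with a 2-fold limit, and 114 higher with a mean FPKM of at least 5. For Cre + NFIA Δpro#3 (575 and 312) they were 313 and 89 with a pseudocount of 5, 3077 and 4428 without a fold limit and 1144 and 1248 with a 2-fold limit, and 755 lower with a pseudocount of 0.1 and 864 lower with voom. The fold limit acts on log2 values to which the pseudocount was added, so genes of low FPKM enter or leave the calls with it.

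With each library left out in turn the counts were 727 to 742 higher and 407 to 430 lower for the day, 25 to 32 and 17 to 27 for the difference from ctrl, 176 to 267 and 131 to 168 from Cre, and 551 to 600 and 292 to 333 from Cre + NFIA Δpro#3. With the replicate block the day comparison gave 730 and 419, with 1149 calls shared, and since the numbers do not pair the libraries this is given here only. Of 3149 values of named genes under these alternatives, 3106 kept their direction and side of the threshold, 37 lost the call (28 of them with a pseudocount of 5), 2 gained it and 4 reversed. The reversed values were all of Nfic, which was not called, at −0.088 with quantile normalization and −0.002, −0.008 and −0.008 without day 0 replicate 2, day 0 replicate 3 and day 7 replicate 1. Over the libraries left out, Nfic ranged from −0.008 to 0.055. The median of the IGF list was −0.443 with a mean FPKM of at least 5. Depth limits the genes near 0 at day 0, where 43 called genes had 0 reads in all 3 libraries.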

Other observations

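Gene families taken by the prefix of their symbols, chosen after other results were known, were also counted between day 0 and day 7 in Cre + NFIA cells, where 6.12% of all genes tested rose and 3.51% fell. Of 39 mitochondrial carriers of the Slc25 family tested, 10 rose and 1 fell, with a median of 0.57. Slc25a10, the dicarboxylate carrier, rose from 11.5 ± 1.23 (SD, n = 3) to 208 ± 4.59 FPKM, and Slc25a1, the citrate carrier, from 89.1 ± 0.935 to 379 ± 2.17 FPKM, while Slc25a24, a calcium-dependent ATP carrier, fell from 15.1 ± 1.34 to 3.76 ± 0.21 FPKM. Of 6 carboxylesterases 3 rose, with Ces1f at 41.4 ± 2.36 FPKM at day 7 beside Ces1d, and these genes lie close together and are similar in sequence, so reads may be split between them. Of 19 aldehyde dehydrogenases 4 rose, with Aldh9a1 at 19 ± 1.6 and then 74 ± 2.82 FPKM. Of 26 Hox genes 2 rose, Hoxb13 and Hoxa4, a share near that of all genes, with a median of −0.54.

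Integrins moved both ways. Of 13 tested, Itga7 (0.922 ± 0.154 to 27.8 ± 1.14 FPKM) and Itga6 (1.68 ± 0.435 to 31.4 ± 0.751 FPKM) rose. Itga3 (20.6 ± 1.57 to 2.9 ± 0.072 FPKM), Itgb5 (71.5 ± 3.57 to 22 ± 0.823 FPKM) and Itga5 (101 ± 6.27 to 32.7 ± 2.66 FPKM) fell. Of 17 interleukin receptor genes 4 fell and 0 rose, with a median of −0.91. Il4ra, the shared receptor chain of IL-4 and IL-13, went from 66.1 ± 2.86 to 11.3 ± 0.288 FPKM, Il13ra1 from 29.2 ± 2.35 to 3.18 ± 0.403 FPKM and Il1r1 from 47.5 ± 2.22 to 14.9 ± 0.606 FPKM. Fgf7, a growth factor of stromal cells, fell from 81.6 ± 5.55 to 12.3 ± 0.601 FPKM. Families with few calls were Rab GTPases (1 of 56), zinc finger genes named Zfp (2 of 275) and kinesins (1 of 29).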
